A study of Mus musculus with 20 samples.

Results

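Interferon-stimulated genes, a set of 49 genes that includes Ly6e and Lgals3bp, were examined in quadriceps muscle of old mice after a single injection of saline or of a stem cell secretome. The members were listed by symbol and were found in the deposited counts through their Ensembl identifiers. All 49 of 49 were among the 55416 genes of the table, and 40 of them were treated as type I-type genes and 9 as IFN-gamma-type GTPases. Of the 14471 genes with enough counts to be tested in edgeR, 48 were members. Isg15, which encodes a ubiquitin-like modifier, had at most 28 counts in a library and was below edgeR's filter on low counts. In DESeq2, which also tested genes of lower counts, its log2 fold change was -0.36 (adjusted p = 0.795).

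The mice were male, wild type (WT), of the strain C57BL/6J and 26 to 28 months old, and all were fasted before 50 µL was injected into the quadriceps. Control mice received saline and secretome-treated mice received a secretome product of human pluripotent stem cells, with 10 mice in each group. The injected muscle was collected a few hours later, so every value is from whole muscle tissue shortly after the injection. Libraries were numbered 1 to 20 in the labels, with the controls as 1 to 10 and the secretome-treated mice as 11 to 20.

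Interferons are secreted proteins, and those of type I are released by cells on sensing viral or misplaced nucleic acid. Type I interferons bind a receptor that activates the Janus kinases Jak1 and Tyk2, after which a complex that holds Stat2 and Irf9 binds a short element in the promoters of its target genes, while interferon gamma has a receptor of its own and acts on another element. Many target genes respond to both, and in muscle they are transcribed in fibres as well as in endothelial, stromal and immune cells.

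Between 13286983 and 22987237 reads per library were counted on genes, and 6 defining genes of muscle fibres (Acta1, Ckm, Myh4, Myh1, Ttn and Des) summed to between 115500 and 325000 CPM (counts scaled to library size, the unit of all levels here), although the labels describe the extracted material as myotubes and the study's methods as muscle tissue. Ttn, which encodes titin, took 7.02% to 11.03% of the reads in libraries 1 to 5, 16.4% to 21.1% in libraries 6 to 15 and 14.2% to 14.7% in libraries 16 to 20. Libraries 6 to 15 were the only range that held both treatments (controls 6 to 10 and secretome-treated mice 1 to 5), so the counts of called members, the medians and the values of several members are also given within it. Control 3 stood apart in the members. It had the highest level among the 10 controls in 36 of the 48 tested members, against 13.3% of all tested genes, and results are therefore also given without it. In whole tissue, fewer cells of a type and less RNA per cell cannot be told apart.

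Part of the members' promoters held the elements through which interferons act. Of the 49 members, 35 had an entry in the RefSeq promoter table of mouse build GRCm38.p6, which holds the 250 bases before and the 50 bases after a transcription start. An interferon-stimulated response element was searched on both strands as GAAANNGAAA and a gamma-activated site as TTCNNNGAA, where N is any base. The first was found in 18 of the 35 members (51.4%) and in 3.99% of the 27025 genes of the table. The second was found in 11 members (31.4%) and in 9.55% of all genes, and 7 members held both. Of the 7 GTPases with a promoter, 6 held the first element, and of the 28 type I-type members 12 did. In 2 members' promoters a response element overlapped a gamma-activated site. Matches of the same element that overlapped each other were not counted in this. Ifit3 and Bst2 are shown as type I-type members that were lower after secretome and hold the first element, which in Bst2 overlaps a match to the second. Igtp is shown as a GTPase that holds both, and Lgals3bp because it had the smallest p of the members in edgeR with all libraries and holds neither sequence in this window. They lie at chr19:34583279-34583578 (Ifit3, plus strand), chr8:71537423-71537722 (Bst2, minus strand), chr11:58199306-58199605 (Igtp, plus strand) and chr11:118401910-118402209 (Lgals3bp, minus strand) of GRCm38.p6, are written 5′ to 3′ along the gene, and have every match in capitals.
Ifit3: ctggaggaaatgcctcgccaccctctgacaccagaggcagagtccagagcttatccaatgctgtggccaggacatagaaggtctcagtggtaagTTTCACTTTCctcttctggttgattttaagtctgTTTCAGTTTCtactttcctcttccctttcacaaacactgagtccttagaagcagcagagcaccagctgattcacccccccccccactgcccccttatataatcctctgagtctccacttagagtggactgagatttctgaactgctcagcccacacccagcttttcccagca
Bst2: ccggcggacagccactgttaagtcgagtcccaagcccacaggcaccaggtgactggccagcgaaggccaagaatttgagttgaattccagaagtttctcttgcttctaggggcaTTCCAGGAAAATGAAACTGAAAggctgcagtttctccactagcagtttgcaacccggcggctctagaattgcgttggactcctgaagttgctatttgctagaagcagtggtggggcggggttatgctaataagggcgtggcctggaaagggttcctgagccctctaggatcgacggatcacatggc
Igtp: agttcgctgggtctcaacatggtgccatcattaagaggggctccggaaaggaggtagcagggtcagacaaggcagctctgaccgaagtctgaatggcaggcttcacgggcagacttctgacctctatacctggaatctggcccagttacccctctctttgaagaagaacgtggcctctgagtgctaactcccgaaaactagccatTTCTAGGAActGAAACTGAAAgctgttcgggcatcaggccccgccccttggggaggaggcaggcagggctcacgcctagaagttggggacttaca
Lgals3bp: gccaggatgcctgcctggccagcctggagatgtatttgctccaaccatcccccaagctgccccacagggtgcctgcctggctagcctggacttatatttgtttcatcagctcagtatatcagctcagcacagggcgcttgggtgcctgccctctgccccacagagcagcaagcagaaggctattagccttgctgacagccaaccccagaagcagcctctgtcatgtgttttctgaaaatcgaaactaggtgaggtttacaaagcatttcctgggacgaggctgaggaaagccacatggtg
A match is a description of the letters and was not tested as a binding site. Of the 8 members with a promoter entry that were lower after secretome at an unadjusted p under 0.05, 2 held the response element, and of the 26 tested members with an entry that were not, 15 held it.

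After secretome, 47 of the 48 tested members had a lower fitted level than in control muscle, as did 8084 of all 14471 tested genes. Of the members, 13 were lower at an unadjusted p under 0.05 in edgeR's quasi-likelihood test. Over all tested genes 9.21% were lower at that p. The 13 were Lgals3bp, Ly6e, Ifit3, Dhx58, Irf7, Zbp1, Cmpk2, Bst2, Helz2, Adar, Oas2, Mx1 and Ifi47. None was higher (0 in edgeR, in DESeq2 and in limma voom), against 6.52% of all genes, and the member with a fold change above 0 was Eif2ak2, the RNA-activated kinase PKR (log2 fold change 0.02). The median log2 fold change was -0.40 in the members and -0.03 in all tested genes. No member passed a 5% false discovery rate in edgeR, where 0.00691% of all genes did, nor in limma voom. DESeq2 called 2 members, Ly6e and Lgals3bp, where 0.756% of all genes were called lower at that rate.

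**Figure D1:**
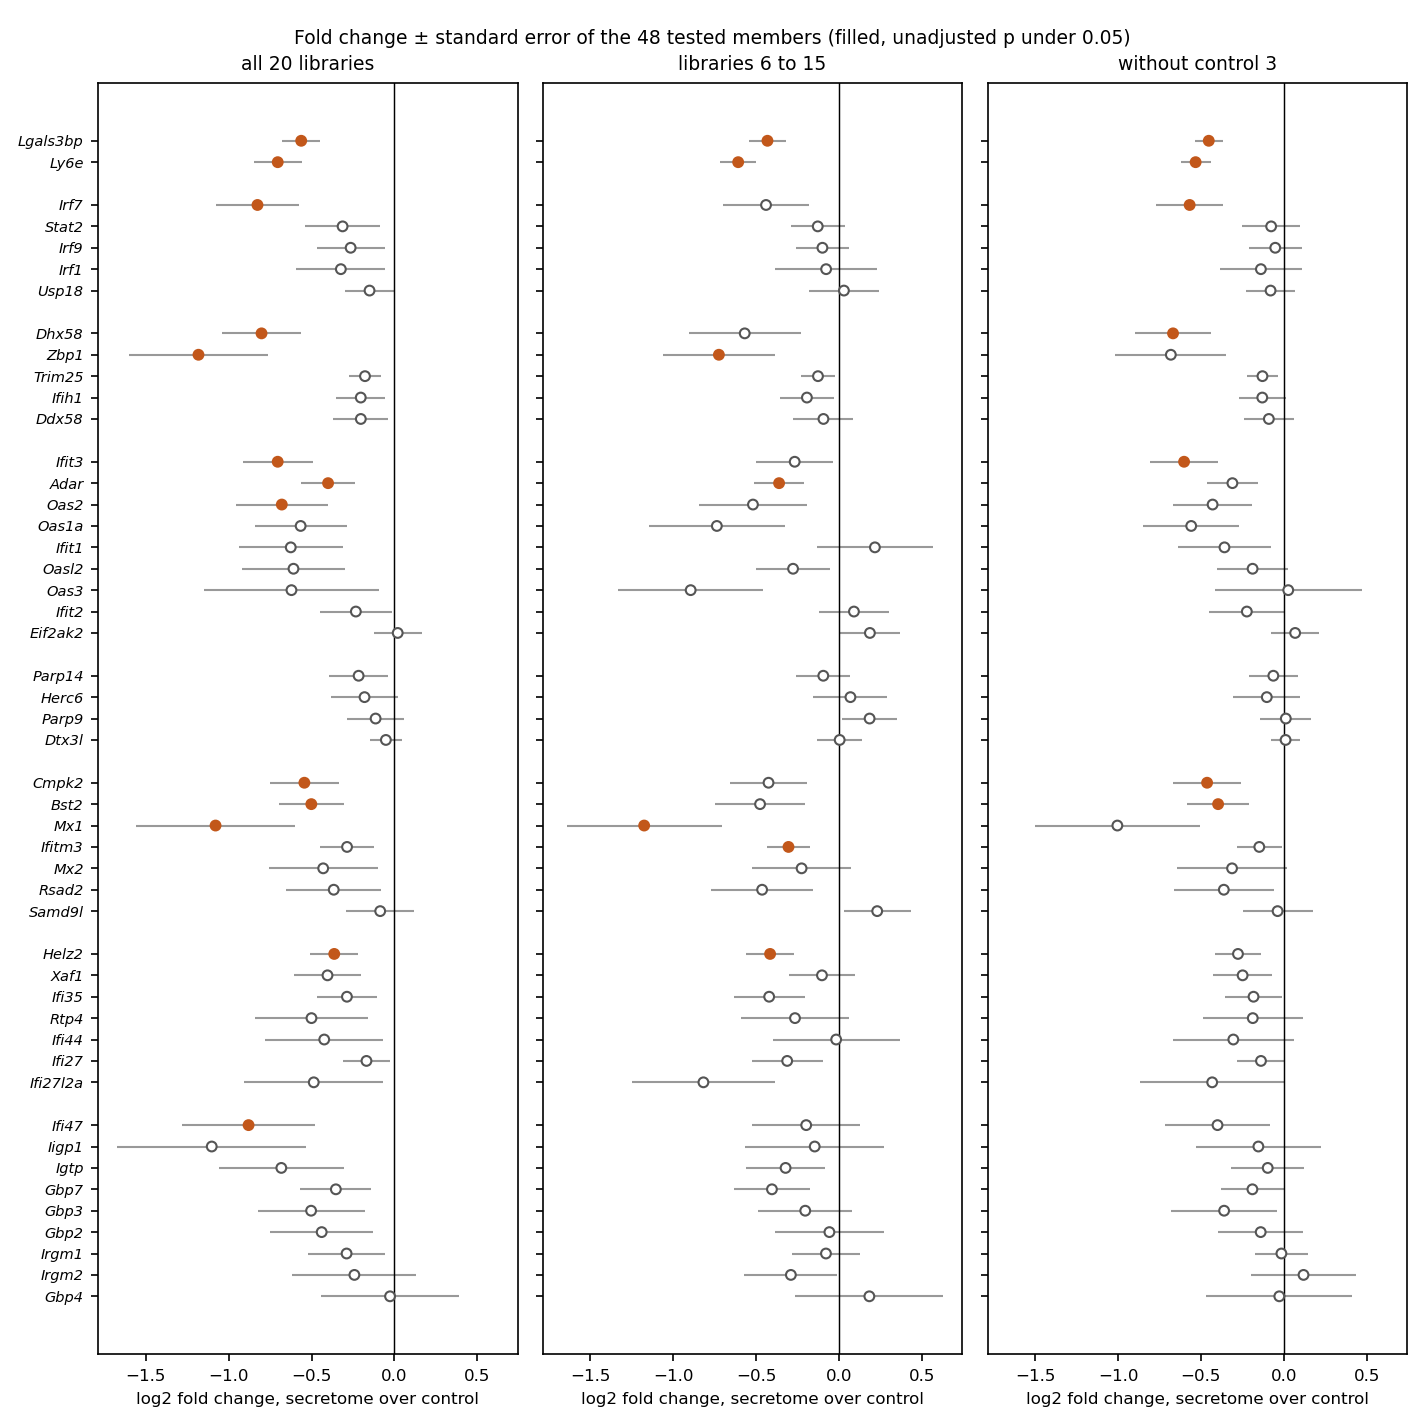
Log2 fold change (horizontal axis, secretome-treated over control) of the 48 tested members with its standard error as a bar, grouped by role, in all 20 libraries (left), in libraries 6 to 15 (middle) and without control 3 (right). Filled points had an unadjusted p under 0.05, which were 13 members on the left, 7 in the middle and 7 on the right, and all of these lie below 0.

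Within libraries 6 to 15, 39 of the 48 members had a negative fold change, as had 7532 of 14469 genes. At an unadjusted p under 0.05, 7 members were lower, where 4.92% of all genes were. These were Ly6e, Lgals3bp, Helz2, Mx1, Adar, Ifitm3 and Zbp1, and the median of the members was -0.25 against -0.01 in all genes. In the other 10 libraries (1 to 5 and 16 to 20), 10 members were lower (9.56% of all genes) and the median was -0.50. The controls had the lower library numbers in both sets, so treatment and library number cannot be told apart in either. Without control 3, 43 of the 48 were negative, as were 7971 of 14533 genes. Then 7 members were lower (Ly6e, Lgals3bp, Ifit3, Dhx58, Irf7, Cmpk2 and Bst2), where 6.45% of all genes were, and the median was -0.19. Leaving out control 3 thus took the count of lower members from 13 to 7. Of those no longer called, Zbp1, Helz2, Adar and Mx1 were near the cutoff in edgeR (unadjusted p = 0.0536, 0.0539, 0.0559 and 0.0567). Oas2 had 0.0835 and Ifi47 0.22. Ly6e and Lgals3bp were the members that stayed lower in the full set, within libraries 6 to 15, in the other libraries and without control 3.

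The difference between the fold changes of the 2 sets of libraries was tested directly. It had an unadjusted p under 0.05 in 2 of the 48 members, against 11.1% of all genes. These were Ifit1 and Ifit3, RNA-binding proteins of the IFIT family. Ifit1 had a log2 fold change of 0.22 (standard error, SE, 0.347) in libraries 6 to 15 and -1.24 (0.384) in the others, with adjusted p = 0.311 for the difference. Ifit3 had values of -0.27 (0.233) and -1.23 (0.279), with adjusted p = 0.308.

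**Figure D2:**
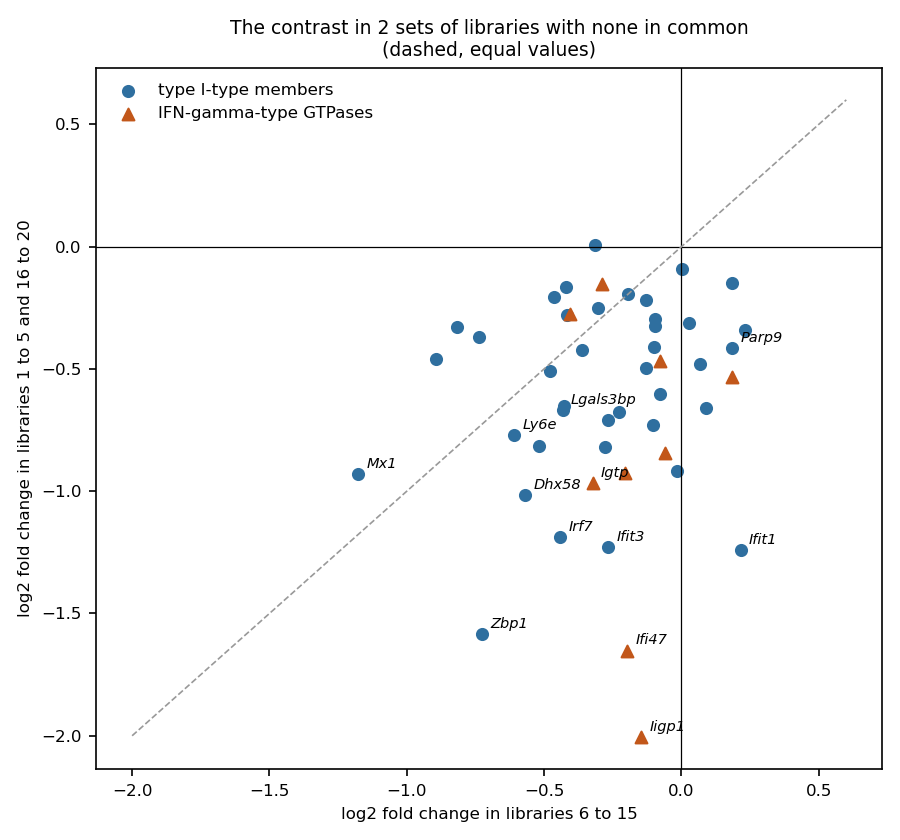
Log2 fold change of each tested member in libraries 6 to 15 (horizontal axis) and in libraries 1 to 5 and 16 to 20 (vertical axis), which share no mouse; circles are type I-type members, triangles the GTPases and the dashed line marks equal values. Most points lie below the line and to the left of 0, and Ly6e and Lgals3bp lie at -0.61 and -0.43 on the horizontal and -0.77 and -0.67 on the vertical axis, while Iigp1 is at -2.01 on the vertical axis.

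Ly6e encodes a membrane protein held by a lipid anchor that is induced by interferon and alters the entry of several viruses. Its level was 30.9 CPM at the lowest, 38.7 at the median and 82.6 at the highest in control muscle, and 20.8, 24.8 and 34.03 in secretome-treated muscle. The highest control was control 3, the next was 43.6 CPM, and 9 of the 10 secretome-treated muscles were below the lowest control. Fitted over all mice, the difference was -0.70 on the log2 scale (SE 0.145, adjusted p = 0.105). In libraries 6 to 15 the controls had 38.0, 31.1, 43.6, 39.5 and 34.4 CPM and the secretome-treated muscles 24.1, 20.8, 25.5, 25.8 and 25.1 CPM. These groups did not overlap, and the log2 fold change was -0.61 (0.108, adjusted p = 0.174). Ly6e passed the 5% false discovery rate in edgeR when control 3 was left out (log2 fold change -0.53, adjusted p = 0.0426) or when control 5 was (-0.74, adjusted p = 0.0428), and in DESeq2 with all mice (-0.68, adjusted p = 0.00672).

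Lgals3bp encodes a secreted glycoprotein that binds galectin-3 and is also induced by interferon. It had 12.8, 14.3 and 26.4 CPM (lowest, median and highest) in control muscle and 9.47, 10.7 and 12.3 CPM in secretome-treated muscle. Every secretome-treated muscle was below every control, which held for 1 of the 48 members and for 0.0138% of all tested genes, namely Lgals3bp and Plxnb2. The fitted difference was -0.56 on the log2 scale (SE 0.114, adjusted p = 0.105). In libraries 6 to 15 the controls had 16.9, 14.2, 15.7, 13.9 and 12.8 CPM and the secretome-treated muscles 11.54, 10.96, 10.09, 10.04 and 11.34 CPM, with a log2 fold change of -0.43 (0.112, adjusted p = 0.404). Ly6e and Lgals3bp were the 2 members whose groups did not overlap in that range, where 1.09% of all genes had every secretome-treated muscle below every control. Lgals3bp passed the false discovery rate in DESeq2 (-0.54, adjusted p = 0.00672) and in edgeR without control 5 (-0.59, adjusted p = 0.0478), and had a log2 fold change of -0.45 without control 3 (adjusted p = 0.0876).

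**Figure D3:**
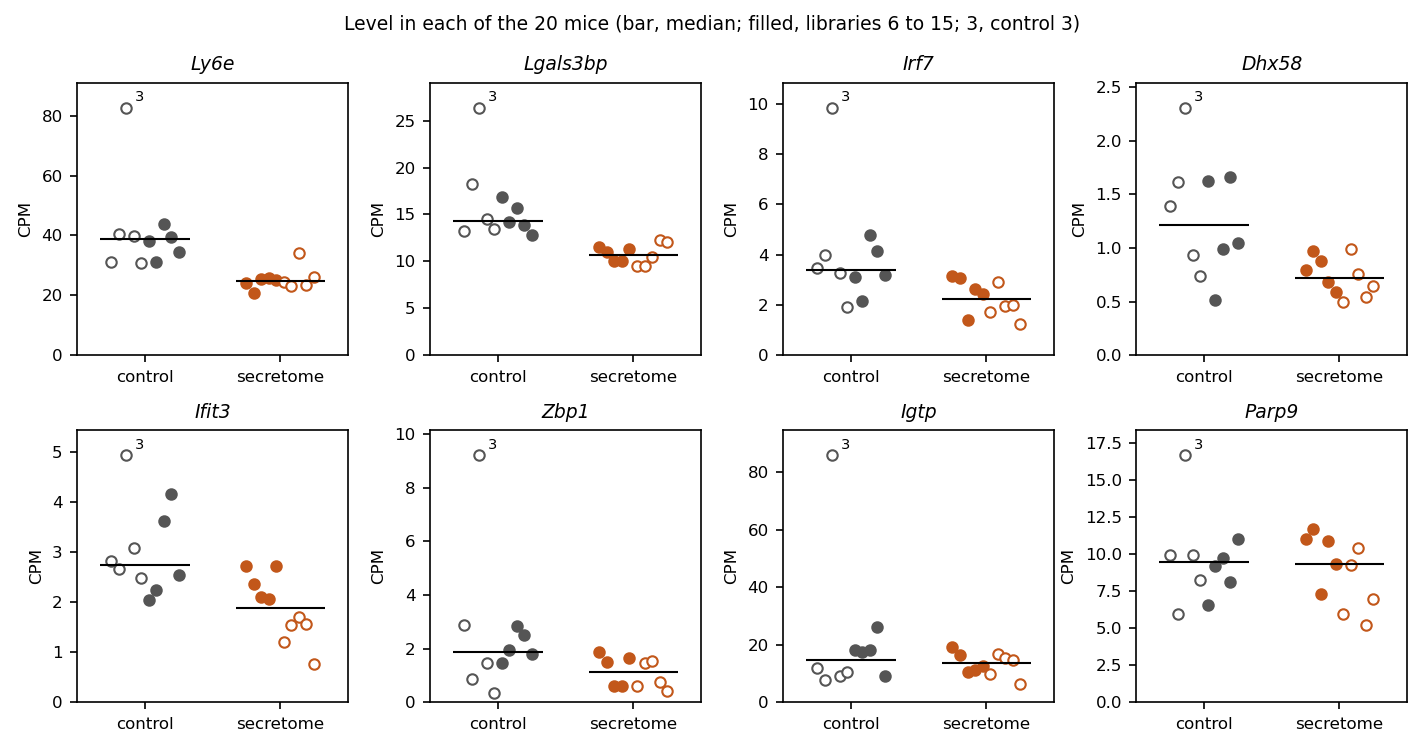
Level in CPM (vertical axis, from 0) of 8 members in each of the 10 control and 10 secretome-treated mice; the bar is the median, filled points are libraries 6 to 15 and the point marked 3 is control 3. The groups do not overlap for Lgals3bp, control 3 is the highest point in all 8 panels, and the medians of Parp9 lie at 9.47 and 9.32 CPM.

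A wider view of the same pattern is given by how many secretome-treated muscles lay below the control median. All 10 did for 8 members, Ly6e, Lgals3bp, Irf7, Dhx58, Ifit3, Cmpk2, Bst2 and Helz2, and this was so for 3.39% of all tested genes. These 8 differ in role and in level. Per kilobase of exon, Ly6e was the fifth most abundant member in control muscle at 10.9 CPM and Lgals3bp the seventh at 5.59 CPM, while Dhx58 had 0.392 CPM. The most abundant was Ifitm3, a membrane protein that traps viruses in endosomes (29.3 CPM per kilobase), and the least abundant Ifi44 (0.14 CPM per kilobase). No test was run between neighbours in this order.

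Among the signal carriers and transcription factors, 1 of 5 was lower at an unadjusted p under 0.05, beside 9.21% of all tested genes. Irf7, the factor that raises the production of type I interferon, had 1.93, 3.37 and 9.84 CPM (lowest, median and highest) in control muscle and 1.23, 2.22 and 3.16 CPM after secretome. The groups overlapped, with 7 of the 10 controls above the highest secretome-treated muscle and 3 of the secretome-treated muscles below the lowest control. Irf7 had a log2 fold change of -0.83 (SE 0.250, adjusted p = 0.158), of -0.44 (0.262, adjusted p = 0.574) in libraries 6 to 15 and of -0.57 (0.200, adjusted p = 0.324) without control 3. Stat2 and Irf9, which belong to the complex that type I interferon activates, had log2 fold changes of -0.31 and -0.26, and of -0.08 and -0.05 without control 3. Irf1, a factor induced mainly by interferon gamma, had -0.32 and -0.14, and Usp18, which removes ISG15 from proteins and holds back the type I receptor, -0.15 and -0.08. Control 3 was the highest control for all 5, with 29.5 CPM of Stat2 against 15.8 CPM in the next.

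Among the sensors of nucleic acid, Dhx58 and Zbp1 were lower and the other 3 were not called, beside 9.21% of all tested genes that were lower. Dhx58 encodes LGP2, which regulates the RNA sensors RIG-I and MDA5. It had 0.51, 1.22 and 2.31 CPM in control muscle (lowest, median and highest) and 0.494, 0.721 and 0.991 CPM after secretome, and all 10 secretome-treated muscles were below the control median. Dhx58 had a log2 fold change of -0.80 (SE 0.240, adjusted p = 0.158), of -0.57 (adjusted p = 0.574) in libraries 6 to 15 and of -0.67 (adjusted p = 0.317) without control 3. Zbp1, a sensor of nucleic acid in the Z form, had 0.34, 1.87 and 9.23 CPM in control muscle and 0.41, 1.12 and 1.88 CPM after secretome. The spread of Zbp1 was wide, with the lowest value of all 20 muscles in control 5 and the highest in control 3. It had a log2 fold change of -1.18 (0.420, adjusted p = 0.204), of -0.73 (adjusted p = 0.499) in libraries 6 to 15 and of -0.68 (adjusted p = 0.447) without control 3. RIG-I itself (Ddx58), MDA5 (Ifih1) and Trim25, a ubiquitin ligase that acts on RIG-I, had log2 fold changes of -0.20, -0.20 and -0.18.

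Of the 9 genes whose products act on RNA, 3 were lower, beside 9.21% of all tested genes. Ifit3 had 2.04, 2.75 and 4.95 CPM in control muscle (lowest, median and highest) and 0.761, 1.88 and 2.73 CPM after secretome, with all 10 secretome-treated muscles below the control median. Ifit3 thus differed by -0.70 on the log2 scale (SE 0.210, adjusted p = 0.158), and by -0.60 (adjusted p = 0.315) without control 3. Reads of Ifit3 may be shared with its near-identical copy Ifit3b, so its level is uncertain. Adar encodes ADAR1, which edits adenosine in double-stranded RNA. It had 5.89, 8.21 and 13.6 CPM in control muscle and 3.28, 6.81 and 8.44 CPM after secretome, with log2 fold changes of -0.40 (0.162, adjusted p = 0.246) and, in libraries 6 to 15, of -0.36 (adjusted p = 0.473). Oas2, one of the synthetases that switch on RNase L, had 2.73, 4.30 and 13.9 CPM in control muscle and 2.00, 3.29 and 5.53 CPM after secretome. Oas2 had a log2 fold change of -0.68 (0.277, adjusted p = 0.248), and of -0.52 (adjusted p = 0.598) in libraries 6 to 15. Without control 3, Ifit3 was the member of this group that was still lower at an unadjusted p under 0.05. The other 6 (Ifit1, Ifit2, Oas1a, Oas3, Oasl2 and Eif2ak2) had log2 fold changes from -0.63 to 0.02, and Oas1a has near-identical neighbours among which its reads may be split.

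The ISG15 system and the Parp9 complex had a median log2 fold change of -0.15, the nearest to 0 of the role groups. None of their 4 tested genes was lower (0 in edgeR, DESeq2 and limma voom, also at an unadjusted p under 0.05). In edgeR 9.21% of all tested genes were lower at that p. Parp9 and Dtx3l, which form a ubiquitin ligase, had log2 fold changes of -0.11 (SE 0.171) and -0.05 (0.0984). Parp9 had 5.96, 9.47 and 16.7 CPM in control muscle and 5.24, 9.32 and 11.7 CPM after secretome, so the secretome-treated muscles lay almost wholly inside the range of the controls. Parp14, a mono-ADP-ribosyltransferase, had -0.22 (0.178), and Herc6, the ligase that attaches ISG15 in mice, had -0.18 (0.201). In libraries 6 to 15 the values of Parp9, Herc6 and Dtx3l were 0.18, 0.07 and 0.0032, above 0. Isg15 had 0 to 1.55 CPM in control and 0.117 to 1.21 CPM in secretome-treated muscle.

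Of the 7 antiviral effectors at membranes and in nucleotide metabolism, Cmpk2, Bst2 and Mx1 were lower, beside 9.21% of all tested genes. Cmpk2, a mitochondrial nucleotide kinase encoded beside Rsad2, had 1.42, 3.21 and 5.06 CPM in control muscle (lowest, median and highest) and 1.19, 2.42 and 3.14 CPM after secretome. The fitted difference of Cmpk2 was -0.54 on the log2 scale (SE 0.207, adjusted p = 0.225), and -0.43 (adjusted p = 0.55) in libraries 6 to 15. Bst2, or tetherin, which holds budding virus at the cell surface, had 2.27, 3.70 and 6.44 CPM in control muscle and 1.76, 2.83 and 3.60 CPM after secretome. For both genes all 10 secretome-treated muscles were below the control median, and the log2 fold change of Bst2 was -0.50 (0.194, adjusted p = 0.232), and -0.48 (adjusted p = 0.561) in libraries 6 to 15. Mx1, an antiviral GTPase whose gene is truncated in most laboratory strains, had 0.0567, 0.983 and 1.59 CPM in control muscle and 0, 0.42 and 1.09 CPM after secretome. Mx1 had a log2 fold change of -1.08 (0.482, adjusted p = 0.283) in all libraries and of -1.18 (0.468, adjusted p = 0.47) in libraries 6 to 15. The other 4 (Mx2, Rsad2, Ifitm3 and Samd9l) had log2 fold changes from -0.43 to -0.09, and Ifitm3 was lower in libraries 6 to 15 alone (-0.31, adjusted p = 0.481).

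In the remaining type I-type group, Helz2 was the 1 of 7 that was lower, beside 9.21% of all tested genes. It encodes a helicase that also acts as a coactivator of PPAR nuclear receptors. Helz2 had 12.1, 17.7 and 28.2 CPM in control muscle (lowest, median and highest) and 11.6, 14.1 and 17.4 CPM after secretome, and its groups overlapped although all 10 secretome-treated muscles were below the control median. Helz2 differed by -0.36 on the log2 scale (SE 0.145, adjusted p = 0.242) in all libraries and by -0.42 (0.144, adjusted p = 0.45) in libraries 6 to 15. Xaf1, a binding partner of the apoptosis inhibitor XIAP, and Ifi35 had log2 fold changes of -0.40 (0.199) and -0.29 (0.183). The other 4 (Ifi27, Ifi27l2a, Ifi44 and Rtp4) had values from -0.50 to -0.17.

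The fold changes of the IFN-gamma-type GTPases were smaller without control 3. These proteins, the guanylate-binding proteins and the immunity-related GTPases, attack the vacuoles of parasites and bacteria inside cells. With all 20 libraries 9 of 9 were negative with a median of -0.44, close to the -0.40 of the 39 tested type I-type members, and 1 of the 9 was lower at an unadjusted p under 0.05 beside 12 of the 39, where 9.21% of all genes were. In libraries 6 to 15 the medians were -0.20 and -0.27, with 0 and 7 lower in edgeR (4.92% of all genes). Without control 3 they were -0.14 and -0.22, again with 0 and 7 lower (6.45% of all genes). At an unadjusted p under 0.05, DESeq2 called 1 GTPase lower with all libraries (1760 of 32454 genes) and 0 without control 3 (1275 of 32227 genes). Limma voom called 0 (867 of 14471 genes). The difference between both classes was not tested.

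The GTPase that was lower was Ifi47, with 0.963, 1.89 and 10.4 CPM in control muscle (lowest, median and highest) and 0.594, 1.40 and 3.92 CPM after secretome. Ifi47 had a log2 fold change of -0.88 (SE 0.400, adjusted p = 0.291), of -0.20 (0.325, adjusted p = 0.841) in libraries 6 to 15 and of -0.40 (0.317, adjusted p = 0.633) without control 3. Iigp1, which coats parasite vacuoles, had 6.03, 13.6 and 148 CPM in control muscle and 4.21, 10.1 and 31.1 CPM after secretome. The value of 148 CPM was that of control 3, and the next control had 34.3 CPM. Iigp1 differed by -1.10 on the log2 scale (0.570, adjusted p = 0.353) with control 3 and by -0.15 (0.376, adjusted p = 0.893) without it. Igtp had 86.0 CPM in control 3 and 26.1 CPM in the next control, and its log2 fold change was -0.68 (0.377) with and -0.10 (0.219) without control 3. The other 6 had log2 fold changes from -0.50 to -0.03. The annotation places exons of Igtp and Irgm2, and of Gbp4 and its neighbours, over each other on the same strand, so reads between these genes may be split. Exons of other genes also lay over those of Gbp7 (11.3% of its exon bases) and Ifi47 (4.5%). In all, 9 members had such an overlap, with the largest shares in Rtp4 (13.9%) and Herc6 (13.7%).

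The mice varied together across the members. Set against the mean of the controls, the median deviation of the type I-type members on the log2 scale was highest in control 3 (0.78), followed by control 9 (0.21), and lowest in secretome 10 (-0.73), secretome 6 (-0.53), secretome 9 (-0.52) and control 5 (-0.46). For the GTPases the highest were control 3 (1.63), control 9 (0.71) and secretome 2 (0.70), and the lowest were secretome 10 (-1.34), secretome 6 (-1.02) and control 2 (-1.0). Both classes thus overlapped between treatments, with controls 2 and 5 among the low mice and secretome 2 among the high ones. Control 2 had the lowest control level in 21 members and control 5 in 17, where they had it in 22.3% and 9.78% of all genes, respectively. Secretome 2 was the highest secretome-treated mouse in 17 members (9.47% of all genes) and secretome 10 the lowest in 17 (11.7% of all genes).

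**Figure D4:**
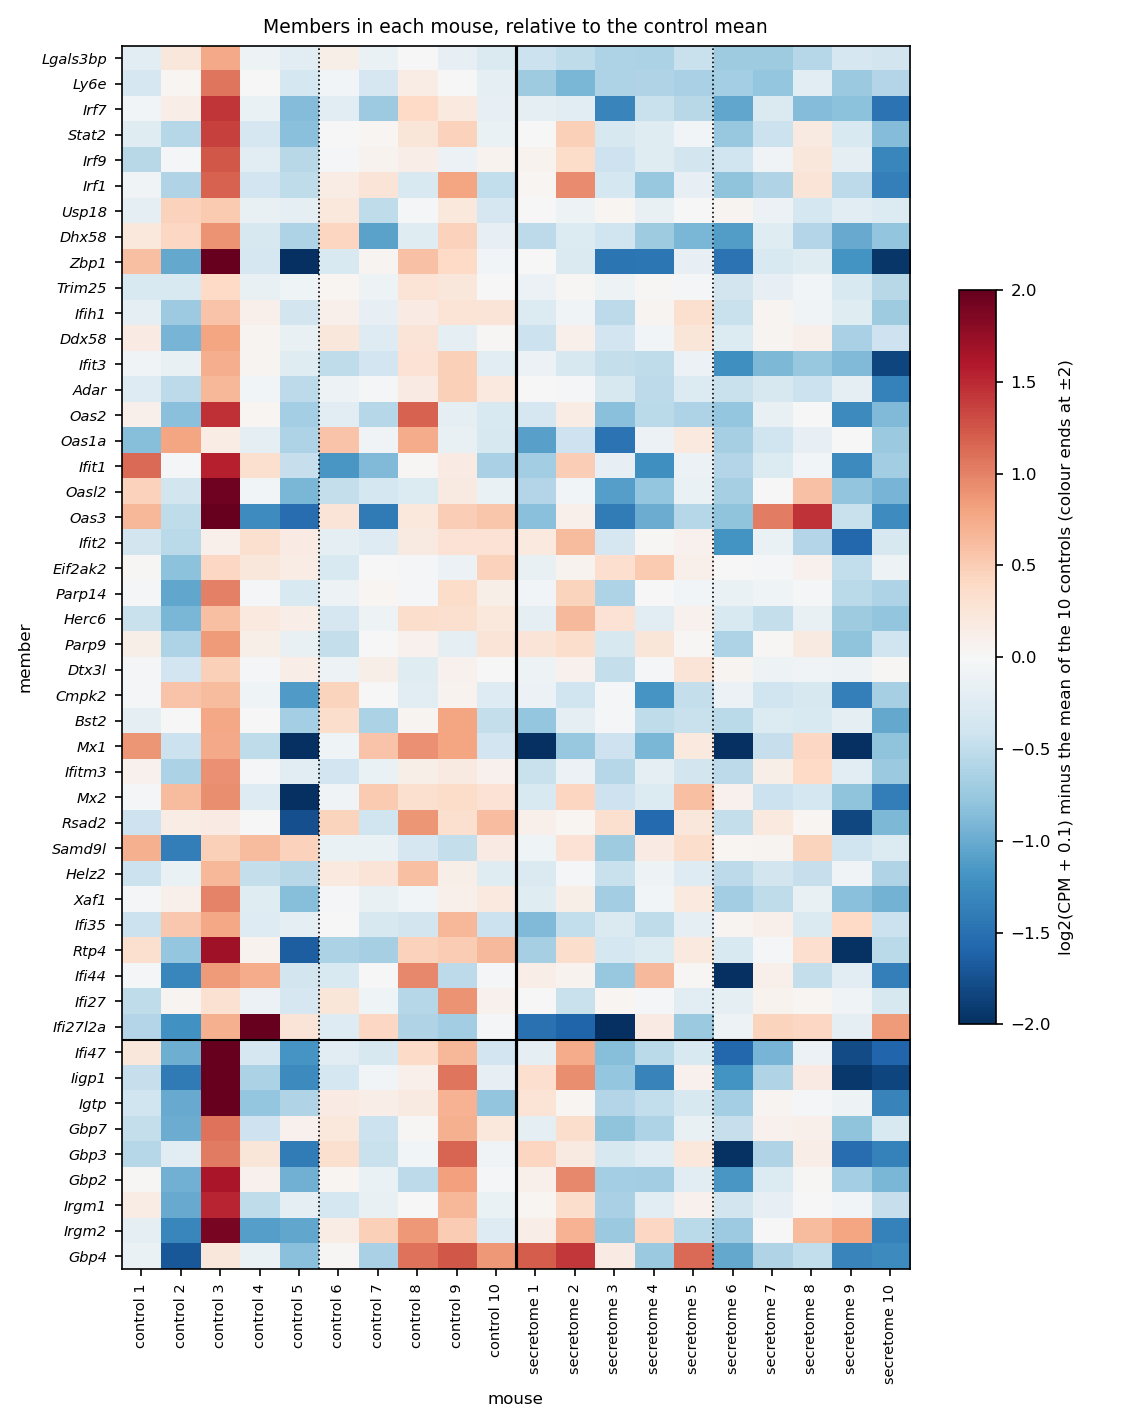
Level of each tested member (rows, type I-type above the horizontal line and GTPases below it) in each mouse (columns), as log2(CPM + 0.1) minus the mean of the 10 controls, with the colour ending at ±2; dotted lines bound libraries 6 to 15. Control 3 is high in most rows, controls 2 and 5 are low in many, and Lgals3bp and Ly6e are below the control mean in all 10 secretome-treated mice.

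Other genes of the pathway were described from lists that do not include the members. Of 21 interferon genes, 17 had 0 counts in every library and the rest (Ifna2, Ifnab, Ifnk and Ifng) had at most 4, so a difference in the interferons themselves was not detectable at this depth. Among 9 tested receptors and kinases, Ifnar2, a chain of the type I receptor, was one of those lower at an unadjusted p under 0.05. At that p, 9.21% of all tested genes were lower and 6.52% higher. Ifnar2 had 3.31, 5.15 and 10.1 CPM in control (lowest, median and highest) and 2.64, 3.96 and 5.16 CPM in secretome-treated muscle. Its log2 fold change was -0.47 (adjusted p = 0.237), and it was not called in libraries 6 to 15 (-0.25, adjusted p = 0.617). The kinase Jak2 was higher at that p (0.30, adjusted p = 0.237). Among 7 inhibitors of the receptors Socs1, which blocks Janus kinases, was lower (-1.27, adjusted p = 0.247, and -0.63 without control 3). The phosphatase Ptpn11 was higher (0.31, adjusted p = 0.173). Without control 3, 0 of the 9 receptors and kinases and 0 of the 7 inhibitors were lower, where 6.45% of all genes were. Jak2 and Ptpn11 were still higher then, as were 707 of 14533 genes.

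Of 12 tested genes that lead to interferon production, 4 were lower and 1 was higher, where 9.21% of all genes were lower and 6.52% higher. Ikbke, a kinase that activates Irf3 and Irf7, had 1.74, 3.75 and 5.43 CPM in control muscle (lowest, median and highest) and 0.823, 2.05 and 3.12 CPM after secretome, with all 10 secretome-treated muscles below the control median. Ikbke differed by -0.83 on the log2 scale (SE 0.219, adjusted p = 0.13) in all libraries and by -0.92 (0.204) in libraries 6 to 15. Tlr9, a receptor for DNA in endosomes, had log2 fold changes of -1.07 and -1.24. Of 36 other tested interferon-stimulated genes, 10 were lower, with a median of -0.30, and in libraries 6 to 15, where 4.92% of all genes were lower, 4 were, with a median of -0.09. The 2 with the smallest p were Lgals9, a galectin (-0.58, adjusted p = 0.136), and Oasl1 (-1.28, adjusted p = 0.154).

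Part of the markers of immune cells were lower beside the members. The summed level of 8 macrophage markers was 45.8, 80.1 and 150 CPM (lowest, median and highest) in control muscle and 37.0, 45.9 and 113 CPM after secretome, with 8 of 8 negative and 4 of 8 lower at an unadjusted p under 0.05 (Csf1r, Adgre1, C1qb and C1qa). Over all tested genes 9.21% were lower at that p. The other 4 macrophage markers had log2 fold changes from -0.39 (Cd163) to -0.02 (Fcgr1). Without control 3, Mrc1 (0.037) and Fcgr1 (0.29) were above 0. Csf1r, Adgre1, C1qb and C1qa were still lower then, where 6.45% of all genes were. In libraries 6 to 15 the sum was 45.8 to 115 CPM in controls and 37.0 to 48.4 CPM in secretome-treated muscle. There 8 of 8 were negative (median -0.86), and 5 were lower (C1qb, Csf1r, Adgre1, Cd163 and C1qa), where 4.92% of all genes were. In libraries 1 to 5 and 16 to 20, 6 of 8 were negative and 1, Csf1r, was lower (9.56% of all genes). Ptprc, which marks all leukocytes, had 3.42, 12.2 and 32.1 CPM in control and 3.28, 7.54 and 30.5 CPM in secretome-treated muscle. Its log2 fold change was -0.47 (adjusted p = 0.568). In libraries 6 to 15 it was lower at an unadjusted p under 0.05 (-0.78, adjusted p = 0.452). Control 3 had the highest Ptprc, the second highest macrophage sum (141 CPM), and the highest control sums of 8 neutrophil markers (87.9 CPM, next 14.6 CPM), 6 T and NK cell markers (7.88 CPM) and 5 red blood cell genes (1375 CPM, next 489 CPM). The neutrophil sum had a median of 9.5 CPM in control and 8.3 CPM in secretome-treated muscle, where the highest was 95.5 CPM. Of its 3 markers tested in edgeR, S100a8 and S100a9 had log2 fold changes of 1.33 and 1.37 and Csf3r -0.12. Without control 3 these were 1.96, 2.00 and 1.08. S100a8 and S100a9 were then higher at an unadjusted p under 0.05, as were 707 of 14533 genes. The T and NK cell sum was 0.116, 1.70 and 7.88 CPM in control (lowest, median and highest) and 0, 0.395 and 1.54 CPM in secretome-treated muscle, and the sum of 4 B cell markers was 0.397, 1.52 and 7.10 CPM and 0.216, 0.548 and 1.18 CPM. None of these genes passed edgeR's filter. In DESeq2, 5 of the 6 T and NK cell markers were lower at an unadjusted p under 0.05 (median log2 fold change -1.97), with Cd3e past the false discovery rate (-3.64, adjusted p = 0.0122), and 4 of the 4 B cell markers were (median -2.77), with 3 past it. Over all genes, 1760 of 32454 were lower in DESeq2 at the unadjusted p, and 0.756% were lower past the false discovery rate. Without control 3, DESeq2 gave 4 of 6 T and NK cell and 4 of 4 B cell markers, with 0 and 1 past the false discovery rate. Of all genes, 1275 of 32227 were then lower at the unadjusted p. The sum of 3 plasmacytoid dendritic cell markers was at most 1.87 CPM. No marker was at 0 in every library. Of 6 endothelial and 5 fibro-adipogenic markers 0 were lower at an unadjusted p under 0.05 with all libraries in edgeR, DESeq2 and limma voom. In edgeR 5 of the 6 (median -0.10) and 5 of the 5 (median -0.36) were negative. In libraries 6 to 15 the endothelial Cldn5 was lower (4.92% of all genes) and the fibro-adipogenic Lum higher (727 of 14469 genes). In libraries 1 to 5 and 16 to 20, Pi16, Pdgfra and Lum, all fibro-adipogenic, were lower (9.56% of all genes). The part of these cells in the levels of the members was not tested.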

How the data were processed

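Bulk RNA was sequenced from the injected quadriceps of 20 mice. The authors prepared stranded libraries depleted of ribosomal RNA and deposited whole-number read counts per gene without normalization. The submitters' processing notes name cutadapt 1.16, STAR 2.7.9a, featureCounts 1.6.3, DESeq2 1.34.0 and build GRCm39. Whether counting used strand is not given in the sources used here. All 20 columns were matched to a sample by its label, and p-values measure the spread between mice.

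Counts were filtered with filterByExpr of edgeR 4.0.16 (R 4.3.3), scaled by TMM to CPM and fitted with the robust quasi-likelihood test, treatment as the only term, with Benjamini-Hochberg adjustment over all tested genes. Standard errors were derived by dividing each log2 fold change by √F. The members and lists were chosen with earlier results of these data known. Values are given for Ly6e, Lgals3bp and the 3 members of smallest p in each role group (all in groups of 5 or fewer), and for the 2 genes of smallest p in other lists. One gene that this rule names is not reported here. Other named genes are examples chosen after their values were seen. GENCODE M21 (GRCm38) gave symbols, exon lengths and overlaps only. CPM per kilobase uses the union of exons.

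Alternatives were DESeq2 1.42.0, limma voom 3.58.1 with quality weights, RLE scaling, no filter, the replicate number as a block, libraries 6 to 15 alone, a term for that range, and each mouse left out. Added after seeing the data were libraries 1 to 5 and 16 to 20 alone, the difference between both sets, DESeq2 without control 3 and alternatives within libraries 6 to 15. The procedure was tested on simulated data. No gene list was tested as a set.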

Additional observations from a re-analysis of the deposited data

Results flagged for a closer look

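In each group of 10 mice, the highest and lowest values of 28 members were compared with the rest by Dixon's gap ratio. The ratio was taken on log2 CPM, so gaps between the CPM printed here differ from it. Chance exceeds its limit in about 5% of groups. Of 56 groups, 10 held such a value. Control 3 was the outlying control for Ly6e (82.6 CPM, next 43.6), Lgals3bp (26.4 CPM, next 18.2), Irf9 (22.1 CPM, next 10.2) and Igtp (86.0 CPM, next 26.1). Control 5 was the outlying low control for Mx1 (0.0567 CPM, next 0.525) and Cmpk2 (1.42 CPM, next 2.67). Among the secretome-treated mice, secretome 10 was low for Irf9 (3.69 CPM, next 6.90) and Adar (3.28 CPM, next 5.93), secretome 3 was low for Dtx3l (12.97 CPM, next 16.95), and secretome 8 was high for Ly6e (34.03 CPM, next 26.2).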

How the results depend on the processing

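No member passed the 5% false discovery rate in edgeR, against 2 in DESeq2 (Ly6e and Lgals3bp, with log2 fold changes of -0.68 and -0.54 and adjusted p = 0.00672 for both) and 2 in DESeq2 without control 3, an alternative added after seeing the data. With each mouse left out in turn the count was 0 to 2, with 1 (Ly6e) without control 3 and 2 without control 5. The log2 fold change of Ly6e then ranged from -0.76 to -0.53 and that of Lgals3bp from -0.59 to -0.45. The 13 members lower at an unadjusted p under 0.05, where 9.21% of all genes were, became 8 in limma voom (867 of 14471 genes). They became 8 with the replicate number as a block (1011 of 14471 genes) and 7 in libraries 6 to 15 (4.92% of all genes). With a mouse left out they were 7 to 19, with 7 without control 3 (6.45% of all genes) and 19 without control 5. The replicate block was not a pairing of mice, since the correlations of same-numbered mice ranged from -0.24 to 0.221, and 0 members passed the false discovery rate with it. Within libraries 6 to 15, which share no replicate numbers, the 7 lower members became 4 without control 9 and 11 without control 7. Apart from the fit without control 3, shares of all genes are not given for fits with a mouse left out. Among the 28 members with values in the text, signs turned in libraries 6 to 15 for Dtx3l (0.0032), Herc6 (0.068), Parp9 (0.18) and Usp18 (0.0289), and without control 3 for Dtx3l and Parp9, which ranged from -0.0895 to 0.0104 and from -0.172 to 0.0119 with a mouse left out. In libraries 6 to 15 the fold changes of Ifit1, Ifit2, Samd9l and Gbp4 also turned, and without control 3 those of Oas3 and Irgm2. Over the alternatives other than the added ones the type I-type median ranged from -0.48 to -0.20 and the GTPase median from -0.57 to -0.14. Over the added ones the GTPase median was -0.84 in libraries 1 to 5 and 16 to 20 and -0.13 in DESeq2 without control 3, and the type I-type median -0.48 and -0.22. The cause of these changes was not tested. Dhx58, Mx1 and the other members near 1 CPM rest on few counts, and the interferon genes on almost none.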
